A study of Mus musculus with 12 samples.

Results

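The folliculin complex, its lysosomal partners and the TFE transcription factors were followed as 9 genes in mouse epiblast stem cells (EpiSCs) given an activator of Wnt signalling, a Wnt inhibitor, both or neither. The genes were Flcn, Fnip1, Fnip2, Rragc, Rragd, Clcn7, Tfe3, Tfeb and Mitf, out of 19938 genes with a probe of 1 gene on the array. They were taken by name from the array's annotation, and where a gene had several probes the brightest on average was used. This choice mattered only for Mitf, which had 2. The group of genes was drawn up with earlier results of these data known, among them the rises of Fnip1 and Clcn7 with both compounds. Values for both compounds against untreated cells and against XAV939 alone are therefore given as a description, with calls counted but no p-value. The other comparisons share untreated, XAV939 or both-compound arrays with these, so their p-values and counts are not independent of the choice.

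EpiSCs are a primed pluripotent cell type, close to the epiblast of the implanted embryo. All samples came from the 129 genetic background, were kept 12 h without serum (a serum content of 10% is recorded for the growth medium of every sample), and fell into 4 groups of 3 arrays. The groups were untreated cells, cells given CHIR99021 at 3 µM for 2 h, cells given XAV939 at 2 µM, and cells given both. CHIR99021 inhibits GSK3 and so stabilises beta-catenin, while XAV939 inhibits tankyrase, which stabilises Axin and lowers beta-catenin. The time with XAV939 is recorded as 2 h for the samples and as 4 h for the series. The series asked which genes lie downstream of the 2 compounds. Nothing recorded says that the 3 samples of a group were separate cultures, so errors and p-values reflect only how far these samples differ, possibly for technical reasons. In bulk samples fewer cells of a type and less RNA per cell cannot be told apart.

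Folliculin, encoded by Flcn, binds FNIP1 or FNIP2 and activates the GTPase function of RagC and RagD on the lysosome. In that state the Rag proteins bring TFEB, TFE3 and MITF to mTORC1, which phosphorylates them and keeps them out of the nucleus. When released, these factors enter the nucleus and bind E-box motifs in genes of lysosomes and autophagy. In mouse embryonic stem cells the folliculin complex is known for keeping TFE3 out of the nucleus as cells leave the naive state.

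Promoter windows of 5 genes are shown first, since the TFE factors bind a defined E-box. Windows of 300 bases, 250 before and 50 after an annotated start, were taken from RefSeq (GRCm38.p6) and all 9 genes matched, with 15 windows. Both strands were searched for the E-box CACGTG and for TCACGTG, which contains it and is preferred by TFE factors, for a longer palindromic form that contains both, for TCATGTG and for the TCF/LEF motif CTTTGAT. Capitals mark each match. Fnip1, Clcn7 and Rragc are shown because a window of theirs holds the E-box. Flcn and Fnip2, whose windows do not hold it, are shown as the other genes called with both compounds against untreated. Whether the E-box goes with a call was not tested. Rragc was called in no comparison.
Fnip1, chr11:54437929-54438228, plus strand: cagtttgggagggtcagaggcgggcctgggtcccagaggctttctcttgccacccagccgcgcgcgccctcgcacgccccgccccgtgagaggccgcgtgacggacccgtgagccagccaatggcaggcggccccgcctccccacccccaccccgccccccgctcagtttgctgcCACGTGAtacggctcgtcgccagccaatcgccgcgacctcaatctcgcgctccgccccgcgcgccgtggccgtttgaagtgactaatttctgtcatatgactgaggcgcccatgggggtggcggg
Clcn7, chr17:25133141-25133440, plus strand: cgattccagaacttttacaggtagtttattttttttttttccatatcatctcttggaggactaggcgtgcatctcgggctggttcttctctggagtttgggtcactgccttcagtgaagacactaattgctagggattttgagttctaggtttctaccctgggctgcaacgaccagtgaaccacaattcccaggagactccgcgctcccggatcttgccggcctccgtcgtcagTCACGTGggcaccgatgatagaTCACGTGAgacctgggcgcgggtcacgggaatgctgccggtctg
Rragc, chr4:123917183-123917482, plus strand: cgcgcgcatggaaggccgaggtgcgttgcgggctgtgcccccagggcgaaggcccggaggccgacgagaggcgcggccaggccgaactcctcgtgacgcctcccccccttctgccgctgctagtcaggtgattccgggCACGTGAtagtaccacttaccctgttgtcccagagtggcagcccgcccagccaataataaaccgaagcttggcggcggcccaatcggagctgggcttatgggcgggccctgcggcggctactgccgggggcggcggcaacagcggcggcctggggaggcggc
Flcn, chr11:59809990-59810289, minus strand: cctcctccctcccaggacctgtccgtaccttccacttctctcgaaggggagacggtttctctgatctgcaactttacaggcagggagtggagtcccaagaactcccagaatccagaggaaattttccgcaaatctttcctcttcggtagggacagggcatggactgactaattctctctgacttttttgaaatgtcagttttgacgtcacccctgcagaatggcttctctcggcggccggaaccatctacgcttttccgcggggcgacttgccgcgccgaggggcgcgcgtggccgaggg
Fnip2, chr3:79567630-79567929, minus strand: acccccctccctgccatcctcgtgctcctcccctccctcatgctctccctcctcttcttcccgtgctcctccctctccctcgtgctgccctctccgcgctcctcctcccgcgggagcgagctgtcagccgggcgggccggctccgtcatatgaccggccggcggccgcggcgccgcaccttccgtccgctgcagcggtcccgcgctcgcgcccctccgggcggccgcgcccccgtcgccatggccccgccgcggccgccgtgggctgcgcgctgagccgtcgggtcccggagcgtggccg

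CACGTG stood in 3 of the 15 windows, 1 each of Fnip1, Clcn7 and Rragc, and in 7.15% of all 32851 windows. TCACGTG, on either strand, stood in the same 3 of the 15 windows and in 3.77% of all windows. The Clcn7 window held the E-box in 2 places, beginning at bases 236 and 258, on either side of the start. That of Fnip1 began at base 176 and that of Rragc at base 139. The longer palindrome was in 0 windows of the 9 genes and in 0.326% of all windows. TCATGTG was found in the second Clcn7 window (3.77% of all) and CTTTGAT in 1 of the 3 Mitf windows (3.73% of all). The shares over all windows are not matched for base content, and several windows can come from 1 gene. G and C made up 70.7% of the Fnip1 and Rragc windows with the E-box and 52.7% of that of Clcn7. The median over all windows was 52.7%. Nothing is read from the shares. These are matches of letters in a 300-base window, and binding was not measured.

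Expression is given as deposited, on a log2 scale whose base was inferred from the range of the values, so a difference of 1 is a doubling. A rough background was set at 4.93, below which 95% of 1190 olfactory or vomeronasal receptor genes had their means, and all 9 genes had means above it. Array medians ranged from 5.22 to 5.27, and correlations between arrays from 0.990 to 0.995. Values of an array had a standard deviation of 2.16 (untreated) to 2.2 (both compounds) on average by group, and untreated replicate 3 and XAV939 replicate 2 were lowest at 2.13 to 2.14. The 10 pluripotent and primed epiblast markers all lay above background, with list means per array from 9.78 to 9.93. Of other cell types, 3 of 8 fibroblast markers (Col1a1, Col1a2 and Thy1), 1 of 6 melanocyte markers (Pmel) and 3 of 8 macrophage and osteoclast markers (Cd68, Acp5 and Ocstamp) lay above it, with list means per array of 4.81 to 5.04, 4.24 to 4.42 and 4.79 to 4.98. Of 10 naive markers, 5 lay above it (list means 5.13 to 5.38), and no gene of the 5 marker lists was called in any comparison.

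Fnip1, which encodes a partner that folliculin needs, was higher with CHIR99021 than in untreated cells. Its values were 7.999, 7.98 and 7.94 in untreated cells and 8.46, 8.42 and 8.46 with CHIR99021. With XAV939 they were 8.03, 7.86 and 8.03, and with both compounds 8.75, 8.47 and 8.50. The arrays with CHIR99021, alone or with XAV939, were all above those without it, while untreated and XAV939 arrays overlapped. With CHIR99021 alone the mean rose from 7.97 ± 0.030 (SD, n = 3) to 8.44 ± 0.024, a change of 0.47 (SE 0.08) or 1.39-fold, which passed the limma test over all genes (adjusted p = 0.0155). It was the only one of the 9 genes called in this comparison, where 0.421% of all genes were called. The 3 untreated arrays also served in a comparison known when Fnip1 was chosen, so this is not an independent test. The call ended when any 1 of the 6 arrays compared was left out (limma adjusted p between 0.0541 and 0.0815), while the change stayed between 0.45 and 0.48. It also ended with both untreated replicate 3 and XAV939 replicate 2 left out (limma adjusted p = 0.0633).

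The CHIR99021 change of Fnip1 was also measured in cells given XAV939, where it was 0.60 (SE 0.08), from 7.97 ± 0.10 (SD, n = 3) to 8.57 ± 0.15. Fnip1 was the 1 gene of the 9 called in this comparison, against 0.236% of all genes, and since the comparison was known when the genes were chosen nothing is read from that. The CHIR99021 changes with and without XAV939 differed by 0.13 (SE 0.12), with a 95% interval from -0.12 to 0.38 that does not exclude a smaller or a larger response with XAV939 (limma adjusted p = 0.970). XAV939 alone left Fnip1 at a difference of -0.00078 (SE 0.08), with a 95% interval from -0.18 to 0.17 (limma adjusted p = 0.999).

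**Figure D1:**
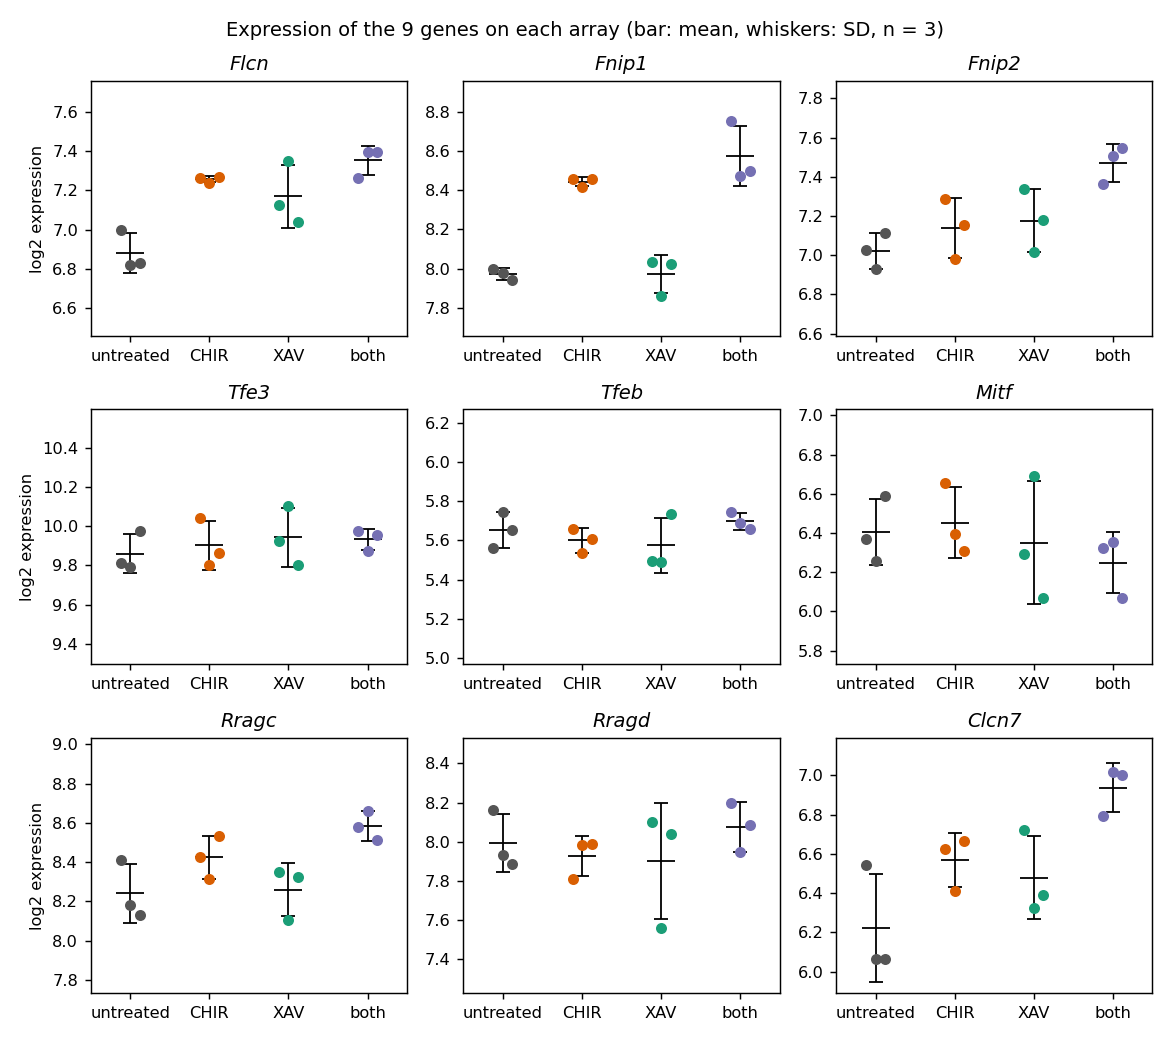
Log2 expression of each gene on the 12 arrays, by group, with the group mean (horizontal bar) and SD (whiskers, n = 3); every panel spans the same range of log2 values. Fnip1 separates the 6 arrays with CHIR99021 (8.42 to 8.75) from the 6 without it (7.86 to 8.03), and Fnip2 and Clcn7 are highest with both compounds.

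Flcn itself, the gene of folliculin, lay lowest in untreated cells. Its values were 6.999, 6.82 and 6.83 in untreated cells and 7.26, 7.24 and 7.27 with CHIR99021. They were 7.12, 7.35 and 7.04 with XAV939, and 7.27, 7.40 and 7.40 with both. Each treated array was above every untreated array, and the 3 treated groups had close or overlapping values. Its mean of 6.88 ± 0.10 (SD, n = 3) untreated compared with 7.26 ± 0.017 with CHIR99021, a difference of 0.38 (SE 0.09), which missed the threshold over all genes (limma adjusted p = 0.0766). That difference passed in 3 of the 26 alternative settings: with array weights, among genes above the median expression and without XAV939 replicate 2 (limma adjusted p between 0.0303 and 0.292 over all alternatives except the fold threshold). The difference with XAV939 was 0.29 (SE 0.09; limma adjusted p = 0.268).

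With both compounds Flcn averaged 7.35 ± 0.08 (SD, n = 3), 0.47 (SE 0.09) above untreated, and was called. Without untreated replicates 2 or 3 or replicates 2 or 3 of both compounds the change was 0.44, 0.44, 0.45 and 0.45 and the call ended. It also ended with both untreated replicate 3 and XAV939 replicate 2 left out (0.44). The CHIR99021 change of Flcn was smaller with XAV939 present, at 0.18 (SE 0.09), than without it, but the difference of -0.19 (SE 0.12) did not pass (95% interval from -0.45 to 0.06; limma adjusted p = 0.965).

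Fnip2, the gene of the second folliculin partner, was highest with both compounds. Values were 7.03, 6.93 and 7.11 in untreated cells and 7.29, 6.98 and 7.15 with CHIR99021. They were 7.34, 7.02 and 7.18 with XAV939, and 7.36, 7.51 and 7.55 with both. The arrays with both compounds were above all 9 others, and the other 3 groups overlapped. CHIR99021 alone gave a difference of 0.12 (SE 0.10; limma adjusted p = 0.737) and XAV939 alone 0.15 (SE 0.10; limma adjusted p = 0.565). With both, the mean of 7.47 ± 0.10 (SD, n = 3) was 0.45 (SE 0.10) above the 7.02 ± 0.09 of untreated cells, and the gene was called. The call ended without any 1 of the 6 arrays compared, with changes between 0.40 and 0.50, and also without CHIR99021 replicate 3 or XAV939 replicate 3, which left the change at 0.45. With both untreated replicate 3 and XAV939 replicate 2 left out it was 0.49 and not called. Both compounds against CHIR99021 alone gave 0.33 (SE 0.10), which did not pass (limma adjusted p = 0.266). The 2 partners of folliculin thus had different values with CHIR99021 alone, 0.47 for Fnip1 and 0.12 for Fnip2, a difference that was not itself tested.

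The Rag GTPases on which the folliculin complex acts were next. Rragc, encoding RagC, had values of 8.41, 8.18 and 8.13 in untreated cells and 8.43, 8.31 and 8.53 with CHIR99021. With XAV939 they were 8.35, 8.10 and 8.32, and with both compounds 8.58, 8.66 and 8.51. The arrays with both compounds were above all untreated and XAV939 arrays, but overlapped those with CHIR99021. The mean of 8.58 ± 0.08 (SD, n = 3) with both was 0.34 (SE 0.09) above untreated and 0.33 (SE 0.09) above XAV939 alone, and was called in neither. Against untreated it was called in 2 of the 26 alternative settings, array weights and the filter at the median. CHIR99021 alone gave 0.18 (SE 0.09; limma adjusted p = 0.523). Rragd, encoding RagD, lay between 7.56 and 8.20 on all 12 arrays, and all 4 groups overlapped. Its group means were 7.99 in untreated cells, 7.93 for CHIR99021, 7.90 for XAV939 and 8.08 for both, and XAV939 replicate 2 was the lowest array. Its difference with CHIR99021 was -0.06 (SE 0.12), with a 95% interval from -0.33 to 0.20 (limma adjusted p = 0.907).

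Clcn7 encodes ClC-7, a chloride/proton exchanger of the lysosomal membrane, and had the largest difference of the 9 genes with both compounds. Values were 6.54, 6.06 and 6.06 in untreated cells and 6.63, 6.41 and 6.67 with CHIR99021. They were 6.72, 6.32 and 6.39 with XAV939, and 6.79, 7.02 and 7.004 with both. Every array with both compounds was above the other 9 arrays. Untreated replicate 1 was the highest untreated array and overlapped both single treatments. CHIR99021 alone gave 0.34 (SE 0.13; limma adjusted p = 0.343) and XAV939 alone 0.26 (SE 0.13; limma adjusted p = 0.479). With both compounds the mean went from 6.22 ± 0.28 (SD, n = 3) to 6.94 ± 0.13, a change of 0.71 (SE 0.13) or 1.64-fold, which ranked 7 among 19938 genes by size of increase. Clcn7 was chosen with this rise known, so its rank is only a description.

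The Clcn7 call with both compounds rested on 4 of the 6 arrays. It ended without untreated replicates 2 or 3 (0.64 each) and without replicates 2 or 3 of both compounds (0.67 and 0.68), and without untreated replicate 1 the change was 0.87 and remained called. It ended too when untreated replicate 3 and XAV939 replicate 2 were both left out (0.64), and in a fit with array SD as a covariate (0.54). Against CHIR99021 alone both compounds gave 0.37 (SE 0.13; limma adjusted p = 0.324). The CHIR99021 change was 0.34 without and 0.46 (SE 0.13) with XAV939, a difference of 0.11 (SE 0.18) below the threshold (limma adjusted p = 0.979).

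**Figure D2:**
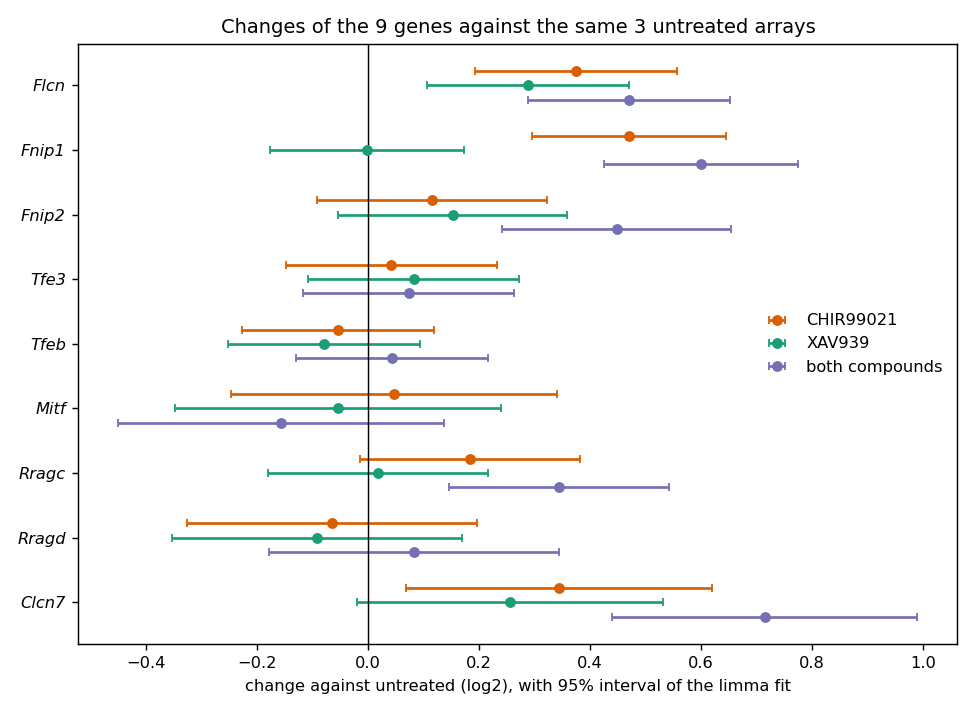
Changes of each gene against untreated cells (log2, horizontal axis) with CHIR99021, XAV939 and both compounds; points are differences of group means and whiskers 95% intervals of the limma fit, not adjusted for the number of genes. All 3 changes of a gene use the same 3 untreated arrays; Clcn7 (0.71) and Fnip1 (0.60) lie farthest to the right, both with the 2 compounds together.

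The 3 TFE transcription factor genes were not called in any of the 6 comparisons. Tfe3 encodes the factor known to be kept out of the nucleus as embryonic stem cells leave the naive state. It lay between 9.79 and 10.1 on all arrays, with group means of 9.86 in untreated cells, 9.90 for CHIR99021, 9.94 for XAV939 and 9.93 for both. Its CHIR99021 difference was 0.04 (SE 0.09), with a 95% interval from -0.15 to 0.23 (limma adjusted p = 0.917). Tfeb, a regulator of lysosomal genes in many tissues, lay between 5.49 and 5.74. Its group means were 5.65, 5.60, 5.57 and 5.70 in the same order, and its CHIR99021 difference was -0.05 (95% interval from -0.23 to 0.12; limma adjusted p = 0.879). Groups of both genes overlapped, except that Tfeb was higher on each array with both compounds than on each with CHIR99021 alone. The separation was narrow, with 5.659 the lowest array with both and 5.658 the highest with CHIR99021. The means differed by 0.10 (SE 0.08; limma adjusted p = 0.694).

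Mitf, best known as the regulator of melanocytes, varied most between arrays of a group. It ranged from 6.07 to 6.69 among the 3 XAV939 arrays alone, and its group means were 6.41, 6.45, 6.35 and 6.25 for untreated cells, CHIR99021, XAV939 and both. No difference passed, and that with CHIR99021 was 0.05 (95% interval from -0.25 to 0.34; limma adjusted p = 0.943). Its second probe lay lower, with group means from 5.24 to 5.36. Of 6 melanocyte markers only Pmel lay above background. Tfec, the remaining gene of the family, was itself below background and not called (-0.13, SE 0.08, with both compounds against untreated).

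By comparison, the 9 genes counted as follows. With CHIR99021 against untreated, 1 was called higher and 0 lower (0.256% and 0.166% of all genes), 7 of 9 differences were above 0, and the median was 0.12 against -0.0053 over all genes. In 2 of 9, Flcn and Fnip1, the CHIR99021 arrays were all above the untreated ones, as in 8.09% of all genes. The untreated arrays were also part of a comparison known when the genes were chosen, so this share is a description. With XAV939 against untreated, limma called 0 of 9, 0% of all genes being called, and 1 (Flcn) had an unadjusted p under 0.05, as did 11.2% of all genes. Array weights also called 0 of the 9. The median was 0.02, and in 1 of 9, again Flcn, the XAV939 arrays were all above the untreated ones, as in 9.48% of all genes.

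With both compounds against untreated, 4 of 9 were called higher (Flcn, Fnip1, Fnip2 and Clcn7) and 0 lower, where 0.818% and 0.311% of all genes were called, 1.13% in all. The median of the 9 was 0.34 against -0.0090 over all genes, and in 5 of 9 the groups did not overlap with all arrays higher, as in 13% of all genes. These figures describe genes chosen with this comparison in view. Only 1 of the 4 calls, Fnip1, remained when both untreated replicate 3 and XAV939 replicate 2 were left out, or with array standard deviation as a covariate. Array standard deviation went with the groups compared, at 2.135 to 2.184 untreated and 2.184 to 2.211 with both. The covariate therefore cannot be told apart from the treatment here. Brightness moved with this comparison: with genes split into 10 classes by mean expression, in class 7, which holds Flcn, Fnip2, Mitf and Clcn7, the median change was 0.10 and the 95th percentile 0.34, and in class 9, with Fnip1 and Rragc, these were 0.08 and 0.28. Under quantile normalization Flcn and Fnip2 were at 0.40 and 0.38 and no longer called, and Fnip1 and Clcn7 at 0.53 and 0.67 and still called.

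**Figure D3:**
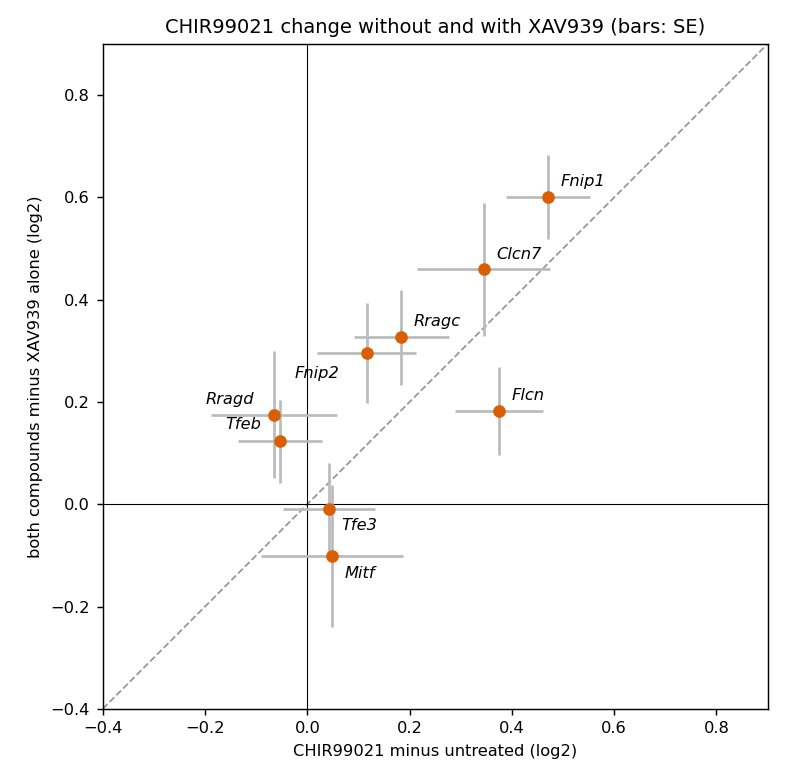
The CHIR99021 change of each gene without XAV939 (horizontal axis, log2) against that with XAV939 (vertical axis, log2), with SE as bars; the 2 comparisons share no array, and the dashed line marks equal changes. Fnip1 (0.47 and 0.60) and Clcn7 (0.34 and 0.46) are high on both axes, while Flcn lies below the line (0.38 and 0.18).

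Both compounds against CHIR99021 alone showed what XAV939 added to CHIR99021. Limma called 0 of the 9 genes (0.0251% of all genes, 5 in number, were called, each lower), and 2 of 9, Fnip2 and Clcn7, had an unadjusted p under 0.05, as did 11% of all genes. Array weights called 0 as well. All arrays with both compounds were above those with CHIR99021 alone for 4 of 9, Fnip1, Fnip2, Tfeb and Clcn7, as in 8.92% of all genes. Tfeb was separated only narrowly, at 5.659 against 5.658 for the nearest arrays. For Fnip1 that difference was 0.13 (SE 0.08; limma adjusted p = 0.583). The difference between the CHIR99021 changes measured with and without XAV939 was called for 0 of the 9 genes by limma (0% of all genes), with 0 of the 9 at an unadjusted p under 0.05 (4.94% of all genes). Against XAV939 alone, both compounds were higher on every array for 4 of 9, Fnip1, Fnip2, Rragc and Clcn7, as in 6.94% of all genes. All counts and p-values in this paragraph use the arrays with both compounds. The rises of Fnip1 and Clcn7 on those arrays were known when the genes were chosen, so these figures are descriptions.

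Other genes of the lysosomal nutrient-sensing pathway were counted from lists of known members. Of 8 genes of the remaining Rag proteins, Ragulator and Slc38a9, which anchor the Rag proteins to the lysosome and sense amino acids there, none was called in any comparison, and the median change with both compounds was 0.08. All 8 differences were above 0 in that comparison, where all genes of brightness classes 7 to 9 had medians of 0.08 to 0.10. Most genes of those classes were thus above 0 as well. Lamtor2, with the smallest p of the list, was at 0.25 (SE 0.09). Of 10 measured genes of GATOR and KICSTOR, which act on RagA and RagB, none was called, and Wdr59 of GATOR2 was at 0.23 (SE 0.08) with both compounds. Of 10 genes of mTORC1, Rheb and the TSC complex none was called. Rptor, encoding the mTORC1 subunit that binds the Rag proteins, was at 0.35 (SE 0.09) with both compounds, and was called with array weights, median centring or the filter at the median expression. Of 6 amino acid sensor genes none was called, with Sesn2 (sestrin 2) at 0.34 (SE 0.10) with both compounds.

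Ulk1 was the gene called in these lists, with CHIR99021 against untreated. There 0.421% of all genes were called, and 0.166% were called lower, so nothing is read about the lists from 1 call. Ulk1 encodes the kinase that starts autophagy, is phosphorylated by mTORC1 and AMPK, and stood among 8 genes of AMPK and its partners. Its values were 7.80, 7.89 and 7.84 in untreated cells and 7.53, 7.46 and 7.46 with CHIR99021. They were 7.98, 7.95 and 7.91 with XAV939, and 7.61, 7.66 and 7.64 with both. The 6 arrays with CHIR99021 all lay below the 6 without it. With CHIR99021 alone it fell by 0.36 on the log2 scale (SE 0.07; limma adjusted p = 0.0223), opposite in direction to Fnip1. The fall ended as a call in the fit to the 2 groups alone (limma adjusted p = 0.0829), with both untreated replicate 3 and XAV939 replicate 2 left out (0.0908) and when any untreated array (limma adjusted p = 0.0541, 0.103 and 0.0871 for replicates 1, 2 and 3) or CHIR99021 replicate 2 or 3 (0.093 and 0.0916) was left out, where the change stayed between -0.39 and -0.34. In cells with XAV939 the CHIR99021 difference was -0.31 (SE 0.07) and was not called.

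Of 15 measured regulators of the TFE factors (14-3-3 proteins, calcineurin, kinases and an exportin), none was called. Ywhah, a 14-3-3 gene, had the smallest p, with -0.23 (SE 0.09) for both compounds. Of 9 genes of lysosomal channels and relatives of Clcn7 none was called, but all 9 differences with both compounds were above 0, with a median of 0.15. In that comparison all genes of brightness classes 7 to 9 had medians of 0.08 to 0.10, so most of them were above 0 as well. Clcn6, a late endosomal relative, was at 0.28 (SE 0.07) in that comparison and was called in 4 of the 26 alternative settings. Ostm1, whose protein is the subunit that ClC-7 needs for stability, had values of 7.19 to 7.40 untreated and 7.53 to 7.74 with both compounds, which did not overlap. Its difference was 0.34 (SE 0.09) and was not called; it was named after its values were seen, as the partner of Clcn7.

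Lysosome and autophagy genes known as targets of TFEB or TFE3 were not called in any comparison. Of 29 measured, 26 lay above background. With both compounds 25 of 29 differences were above 0, with a median of 0.18 and a range from -0.12 to 0.34, and 14 had an unadjusted p under 0.05, a share to be set beside 18.7% of all genes. The 18.7% covers dim genes too. Brighter genes rose in general, with medians of 0.04, 0.10, 0.10, 0.08 and 0.03 in brightness classes 6 to 10. A share matched for brightness is not given, so nothing is read about the targets from these counts. With CHIR99021 alone the median was 0.04, with 3 of 29 at an unadjusted p under 0.05 beside 10.3% of all genes. With XAV939 alone it was 0.07, with 2 of 29 beside 11.2% of all genes. Atp6v0d1, a V-ATPase subunit gene, had the smallest p of the list, at 8.96 ± 0.04 (SD, n = 3) untreated and 9.28 ± 0.08 with both, a difference of 0.32 (SE 0.08) that was not called, though 6 of the 26 alternative settings called it. Esrrb, a naive pluripotency gene activated by TFE3, lay below background on average, with group means from 4.32 to 4.59, and was not called; it was named after its values were seen.

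**Figure D4:**
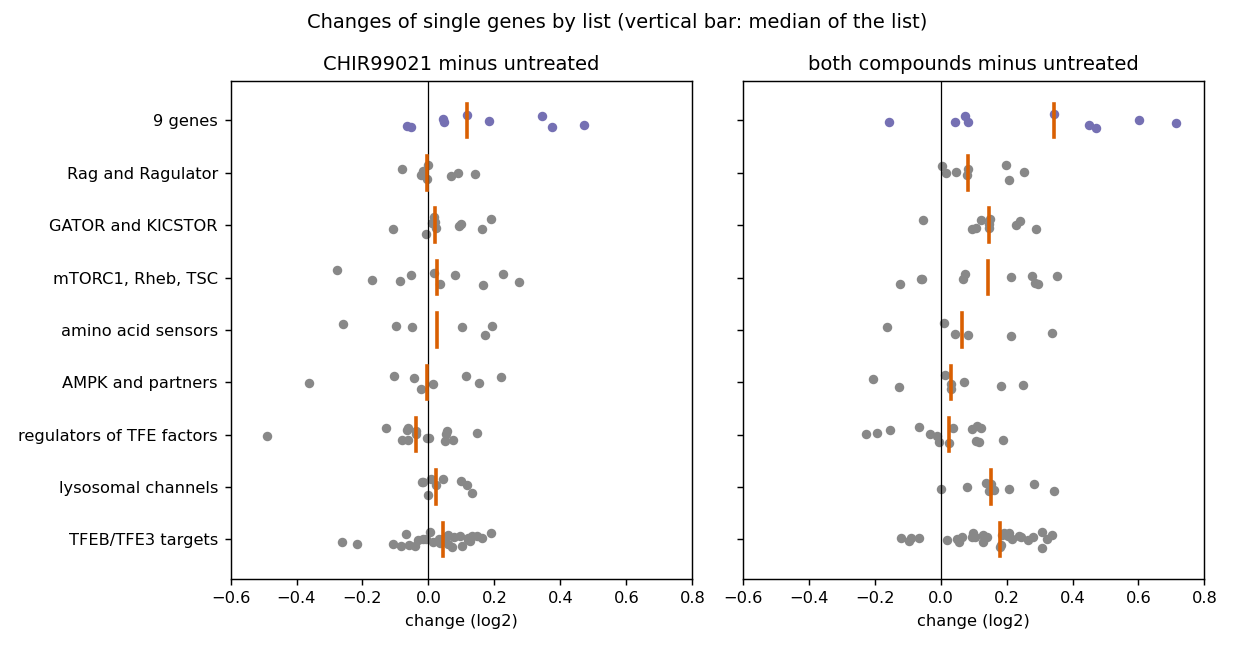
Changes (log2, horizontal axis) of every measured gene in each list, with CHIR99021 (left) and both compounds (right) against untreated cells; each point is 1 gene and the vertical bar the median of its list. With both compounds the medians are 0.34 for the 9 genes, 0.18 for TFEB and TFE3 targets and 0.15 for lysosomal channels, and the lowest point for CHIR99021 among AMPK and its partners is Ulk1 (-0.36). All genes of brightness classes 7 to 9 had medians of 0.08 to 0.10 with both compounds.

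Genes with the array profile most like a given gene were found by the root mean square difference over the 12 arrays, each gene centred on its own mean, among 11646 other genes above background. Arrays of a group and all normalization are shared by such profiles, so they are descriptions. For Fnip1 the closest were Ccnt2 (0.101), Ubn1 (0.115), Znrf3 (0.129), Fam13b (0.140) and D10Wsu102e (0.140), where the median gene lay at 0.292. Ccnt2 encodes a cyclin of the elongation kinase P-TEFb, and Znrf3 an antagonist of Wnt receptors that is a Wnt target. For Clcn7 they were Fam13b (0.119), Pkia (0.127), Mmd (0.135), Pggt1b (0.136) and Dpp7 (0.137), where the median gene lay at 0.301. Dpp7 encodes a lysosomal peptidase. For Flcn they were Frem2 (0.0675), Mier2 (0.0747), Smg8 (0.0835), Srcap (0.0873) and Cpeb4 (0.0889), against a median of 0.213. Fam13b stood in the sets of both Fnip1 and Clcn7.

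**Figure D5:**
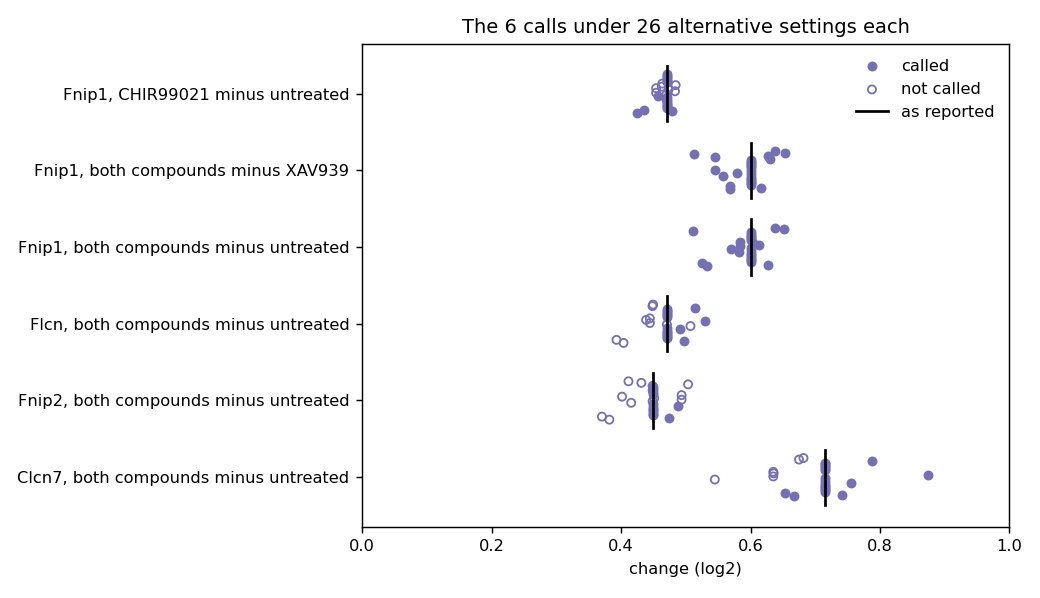
The change (log2, horizontal axis) of each gene called, under the 26 alternative settings; filled points were called, open points were not, and the vertical line is the value as reported. For CHIR99021 against untreated, Fnip1 keeps 18 of 26 calls and loses the call without any 1 of the 6 arrays compared. For both compounds, Fnip1 keeps all 26 against untreated and against XAV939. Against untreated, Flcn keeps 17, Fnip2 13 and Clcn7 20. The comparisons with both compounds were known when the genes were chosen, and CHIR99021 against untreated shares untreated arrays with them. The counts only describe how the values move, and many settings leave a change as it was.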

How the data were processed

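The authors deposited log2 expression per probe from 12 one-colour Affymetrix arrays (biotin-labelled total RNA, per the labels' protocols). The log2 base was inferred from the range, 2.52 to 14.3. The submitters' processing notes name Partek as the software, without a version; background correction and normalization are not given in the sources used here, and no further normalization was applied. Of 35399 probes, 21789 had 1 gene, 1621 several and 11989 no listed gene; names followed RefSeq (GRCm38.p6; 91 probes unmatched).

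A linear model with 1 mean per group was fitted across the 12 arrays (limma 3.58.1, R 4.3.3, lmFit and eBayes, two-sided). It gave 6 comparisons, each adjusted by Benjamini-Hochberg over 19938 genes and called below 0.05. The fit had 8 residual and 8.03 prior degrees of freedom. It was also run on simulated data, but the outcome is not reported here and nothing is read from it. Arrays carry no read depth, and 3 per group limit precision. Members and lists were chosen with earlier results of these data known. Named genes were all 9 members, list genes called in any comparison or else the 1 with the smallest p, and the 5 closest profiles of Fnip1, Clcn7 and Flcn; Ostm1 and Esrrb are exceptions, named after their values were seen. Tfe3, Fnip1, Fnip2, Mitf, Rragc and Clcn7 overlap other RefSeq genes, mostly non-coding. Some genes of the lists are not reported here. Alternatives were other normalizations, filters on dim genes, probe rules, fits to the groups compared, eBayes settings, array weights, a replicate block, array standard deviation as a covariate, a fold threshold of 1.5 and leaving out arrays; they were applied to the named list genes after the data were seen. Figures were drawn with matplotlib 3.10.9.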

Additional observations from a re-analysis of the deposited data

How the results depend on the processing

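None of the 6 member calls changed direction in 156 recomputed values, which is a description where the comparison was known when the genes were chosen. Many of these values could not move. Filters, probe rules for genes with 1 probe and leaving out arrays not compared kept the change as it was. So did fits to the groups compared, eBayes settings, the replicate block and the fold threshold, which alter only the test. For CHIR99021 against untreated, 1 of 9 genes was called, 2 among genes above the median expression and 2 with array weights, 0 at a fold of at least 1.5 and 0 when the arrays of untreated replicate 3 and XAV939 replicate 2 were both left out; without single arrays the count ranged from 0 to 2. For both compounds against untreated, 4 were called, 5 with array weights (Rragc added), 2 with quantile normalization, 2 with cyclic loess, 1 with array standard deviation as a covariate, 2 at a fold of at least 1.5 and 1 without the 2 arrays together; without single arrays it ranged from 1 to 4. In the other 4 comparisons the count of the 9 genes was the same in each setting run. A fold of at least 1.5 ended the calls of Fnip1 and Ulk1 with CHIR99021 and of Flcn and Fnip2 with both compounds. Over all genes, the count for both compounds against untreated was 225; it was 103 with quantile normalization, 104 with cyclic loess, 109 with the 2 groups alone, 20 with the covariate, 19 at the fold threshold and 12 without the 2 arrays together, and 382 with median centring, 352 and 528 with the filters on dim genes and 550 with array weights. Single arrays left out gave as few as 10 (without replicate 2 of both compounds) and 13 (without untreated replicate 3). For CHIR99021 against untreated it was 84, 30 at the fold threshold, 42 without the 2 arrays together and as few as 34 without untreated replicate 3. For both against XAV939 it was 47, 19 at the fold threshold, 21 without the 2 arrays together and as few as 21 without XAV939 replicate 1. It was 5 (0 to 10 over all settings) for both against CHIR99021, 0 (8 with array weights, 3 with the covariate) for XAV939 against untreated and 0 (at most 1) for the interaction.

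Samples of the same replicate number did not deviate together (correlations from -0.25 to 0.20, with 6 of 18 pairs over 0.1, and 4 of 12 arrays closest to their own number), so the number was not taken as pairing. With it as a replicate block, 1, 0, 4, 1, 0 and 0 members were called in the 6 comparisons, as without it, and 78, 168 and 43 of all genes for CHIR99021, for both against untreated and for both against XAV939, against 84, 225 and 47. It called Nanog and Tbx3 with CHIR99021 (limma adjusted p = 0.0341 and 0.0373), which were not called without it (0.123 and 0.129).

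Small differences that were not called turned sign in 41 of 1395 recomputed values, in 16 results whose size was at most 0.16, and the cause was not tested. The 1395 include values that their setting could not move. With array standard deviation as a covariate, Mitf was at 0.034 for XAV939 against untreated, 0.16 for both against untreated and 0.12 for both against XAV939, Tfe3 at 0.10 for the last, Rragc at -0.017 for XAV939 and Rragd at -0.14 for both against untreated. For XAV939 against untreated, Fnip1 was at 0.010 with median centring, 0.026 with array weights and 0.039 without the 2 arrays together. There Rragd was at 0.013 with array weights and 0.025 without the 2 arrays, Rragc at -0.0048 with quantile normalization and -0.022 with cyclic loess, and Mitf at 0.033 with the mean of its probes. For both against XAV939, Tfe3 was at 0.0063 with median centring, 0.020 with array weights and 0.068 without the 2 arrays, and Mitf at 0.068 without them.

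Without single arrays, results that turned sign ranged as follows. With CHIR99021 against untreated Mitf lay from -0.053 to 0.14, Rragd from -0.12 to 0.019 and Tfe3 from -0.027 to 0.10. With XAV939 against untreated Fnip1 lay from -0.030 to 0.055, Mitf from -0.22 to 0.086, Rragc from -0.036 to 0.10 and Rragd from -0.19 to 0.079. With both against XAV939 Mitf lay from -0.24 to 0.068 and Tfe3 from -0.078 to 0.068. Tfeb lay from -0.0021 to 0.088 for both against untreated and Tfe3 from -0.020 to 0.10 for both against CHIR99021. The interaction lay from -0.044 to 0.24 for Clcn7, from -0.29 to 0.020 for Mitf and from -0.12 to 0.026 for Tfe3.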
